A study of Homo sapiens with 6 samples.

Results

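The genes described here encode the proteins of the cytosolic ribosome, the particle that reads messenger RNA and joins amino acids into protein. It is built from a small subunit, which holds the message and decodes it, and a large subunit, which forms the peptide bond and lets the new chain out through a tunnel. Messages for these proteins begin with a pyrimidine tract, the TOP motif, through which the mTOR kinase and the RNA-binding protein LARP1 control how well they are translated and how long they are stored. Because each ribosome takes one copy of almost every protein, cells keep the levels of these proteins in step. Proliferating cells, neuroblastoma cells among them, carry these messages at some of the highest levels of any gene class. Members were chosen by a rule on names, with earlier results of these data known. It covered genes named Rpl or Rps with a number and at most the letter a or x, plus Rplp0, Rplp1, Rplp2 and Rpsa. The rule took 75 genes of 53492 in the deposited tables, 45 of the large subunit and 30 of the small subunit. No gene under the name Rpl13, which the rule would match, is among them.

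Polyadenylated RNA was sequenced from 6 libraries. In 3 of them the cells were transfected with pCS2-eGFP-CCNB1IP1, a vector for green fluorescent protein (GFP) joined to CCNB1IP1; these are called GFP-CCNB1IP1. The other 3 received pCS2-eGFP-N, a vector for GFP, and are called GFP. All 6 are labelled SH-SY5Y, a human neuroblastoma line, so both groups share the cell line, the transfection and a GFP tag; no time after transfection and no transfection efficiency is given, so cells that took up no vector may be part of each library. CCNB1IP1 (HEI10) is a ubiquitin ligase that binds cyclin B1 and works in the crossing over of meiosis. The labels do not say whether replicates are separate cultures, so p-values measure the spread between these libraries, which may be technical.

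All 53492 gene identifiers in the tables are of mouse, with 19 numbered chromosomes, although the label names a human line; the genes are called here as the tables name them. Mouse Ccnb1ip1 was at 7.36e-08, 0.133 and 0.191 FPKM in GFP-CCNB1IP1 replicates 1 to 3 and at 0.0334, 0.125 and 0.0698 FPKM in GFP replicates 1 to 3, which overlap, so the labels could not be checked on it; whether reads of the vector would be counted there is not given in the sources used here. FPKM, the unit throughout, are fragments scaled by transcript length and by library size. Levels set side by side between genes also depend on how reads were divided among similar sequences. What this, or mouse identifiers under a human label, does to the order of levels below was not tested. Depth is not given; the fragments per FPKM that the deposited confidence intervals imply, relative to the GFP mean, were 0.973, 0.718 and 1.03 in GFP-CCNB1IP1 replicates 1 to 3 and 0.950 to 1.06 in the GFP libraries. Of 9 noradrenergic neuroblastoma markers, 8 were at 1 FPKM or more; Dbh was under 1 FPKM. Summed, those markers were at 636 to 726 FPKM in GFP-CCNB1IP1 libraries and at 774 to 876 FPKM in GFP libraries, and their part in any result below was not tested. Fibroblast, Schwann cell, epithelial and endothelial markers summed to at most 3.06 FPKM in any library. Leukocyte markers summed to 0.505 to 12.7 FPKM in GFP-CCNB1IP1 libraries and to 0.197 to 0.796 FPKM in GFP libraries.

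The ribosomal protein genes were among the most abundant transcripts in every library. Their mean levels over the 6 libraries ran from 6.43 to 1773 FPKM with a median of 587 FPKM, and 51 of the 75 were among the 100 highest of all genes. At least 1000 FPKM was reached by 12 of them. The highest was Rpl41, which encodes the shortest ribosomal protein, at 1906, 1693 and 1800 FPKM in GFP-CCNB1IP1 libraries and at 1736, 1746 and 1755 FPKM in GFP libraries. It was followed by Rplp1, an acidic protein of the stalk that recruits translation factors, with a mean of 1482 FPKM. Next came Rpl13a, known in human cells also for silencing inflammatory messages, at 1399 FPKM, then Rpl8, which lies near the catalytic centre, at 1358 FPKM, and Rpl32 at 1306 FPKM. The groups overlapped for each of these 5 genes.

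At the low end 5 large-subunit genes stood under 100 FPKM, while Rps18, the next above them, had a mean of 124 FPKM. Rpl35a, mutated in some patients with Diamond-Blackfan anaemia, had 78.4, 45.3 and 76.0 FPKM in GFP-CCNB1IP1 libraries, against 54.0, 55.1 and 66.3 FPKM in GFP libraries. Rpl26, which sits at the mouth of the exit tunnel, had 58.7, 60.6 and 63.2 FPKM in GFP-CCNB1IP1 libraries, against 58.3, 62.6 and 66.4 FPKM in GFP libraries. In GFP-CCNB1IP1 libraries Rpl30 had 27.0, 34.97 and 25.5 FPKM in GFP-CCNB1IP1 libraries, against 27.8, 26.6 and 25.1 FPKM in GFP libraries. These 3 overlapped between the groups. Rpl29 had 15.5, 15.1 and 17.3 FPKM in GFP-CCNB1IP1 libraries, against 16.8, 16.3 and 15.2 FPKM in GFP libraries, and also overlapped. The lowest, Rpl21, is described with the large subunit.

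The large subunit spanned the whole range, from 6.43 to 1773 FPKM with a median of 542 FPKM over its 45 genes. The small subunit was more even, from 124 to 1305 FPKM with a median of 603 FPKM over its 30 genes, and none of those was under 100 FPKM. Fragments implied by the deposited confidence intervals ran from 51.4 for the thinnest value of a member to 10992 for the best. The error that these intervals describe is thus small for most of these genes and larger for Rpl21 and Rpl29.

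**Figure D1:**
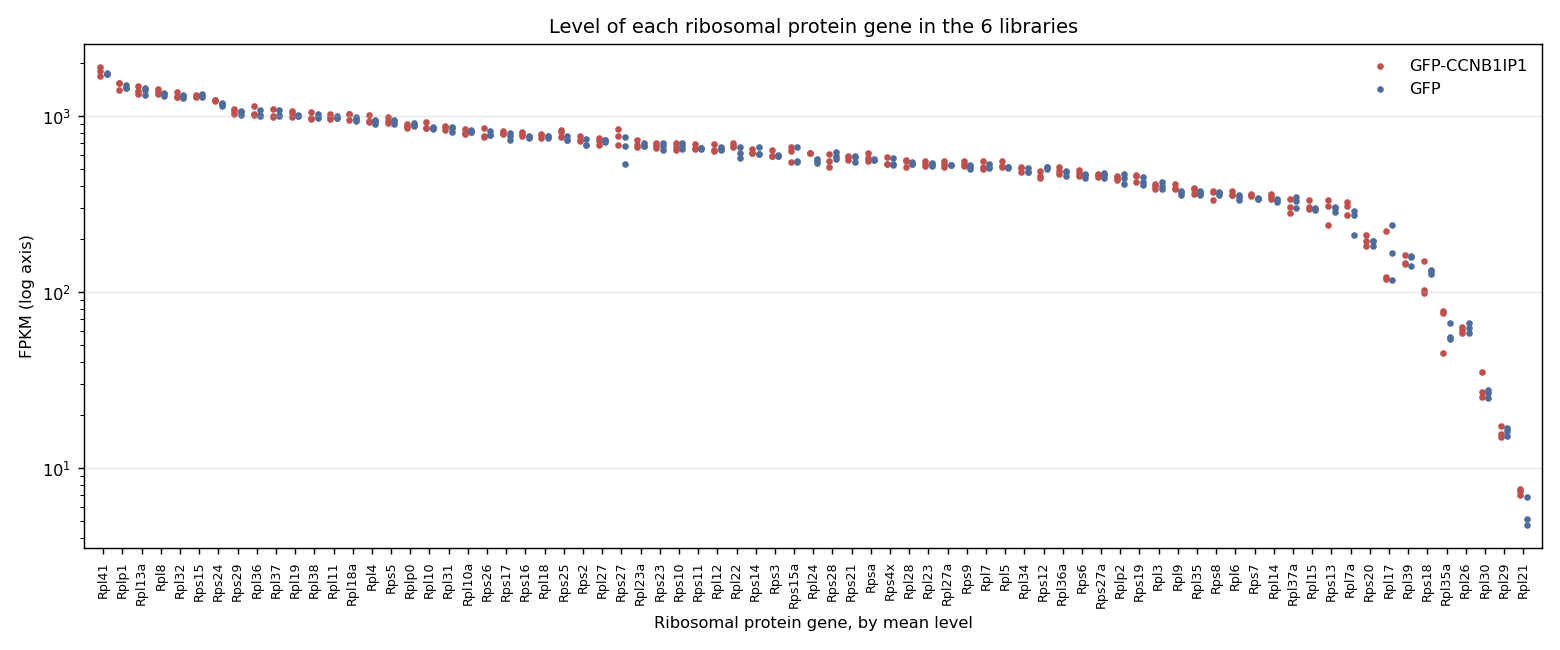
Level of each of the 75 ribosomal protein genes in FPKM (log axis), ordered by the mean over the 6 libraries, with 1 point per library, GFP-CCNB1IP1 left of GFP. Points of the groups lie on top of each other for most genes, levels run from a mean of 1773 FPKM for Rpl41 to 6.43 FPKM for Rpl21, and 5 genes lie under 100 FPKM.

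Low levels went with named pseudogenes in several cases. Ribosomal protein genes have left many processed copies in mammalian genomes, which resemble the spliced message of the parent closely enough that short reads can match both. As many as 312 genes were named as copies of a member, by the member's name with the ending -ps, in most cases followed by a number, and 61 members had at least 1. Of the copies, 132 had a mean of at least 1 FPKM, 23 had at least 100 FPKM and 125 were listed at 0 in every library. How reads were divided between a gene and its copies is not given in the sources used here, and which of them the RNA came from was not tested.

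For 7 members the copies together stood above the gene itself. Rps18, a protein of the head of the small subunit, at chr17:34170973-34174975 in the tables' coordinates, had a mean of 124 FPKM, while its copies summed to 1662 FPKM, which is 13.4 times as much. One of them, Rps18-ps6, at chr13:97896580-97897140, alone had 1286, 1210 and 1200 FPKM in GFP-CCNB1IP1 libraries, against 1252, 1272 and 1343 FPKM in GFP libraries, a mean that 6 members exceeded. Copies of Rpl21 summed to 132 FPKM, 20.5 times the gene. Copies of Rpl30 reached 534 FPKM, 19.2 times the gene, and those of Rpl35a 730 FPKM, 11.7 times the gene. These 4 genes and their copies are thus very unequal in level, and 3 of them are among the 5 lowest members.

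The remaining 3 were closer to even. Copies of Rpl17 summed to 432 FPKM, 2.63 times the gene, those of Rps7 to 407 FPKM, 1.17 times the gene, and those of Rpl7a to 296 FPKM, 1.05 times the gene. Rpl29 and Rpl26 were low without such copies, at 1.24 and 0.0401 FPKM summed. With copies added to each member, 2 sums remained under 100 FPKM in place of 5 genes, those of Rpl29 and Rpl26, and the highest sum, of Rps18, was 1786 FPKM.

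**Figure D2:**
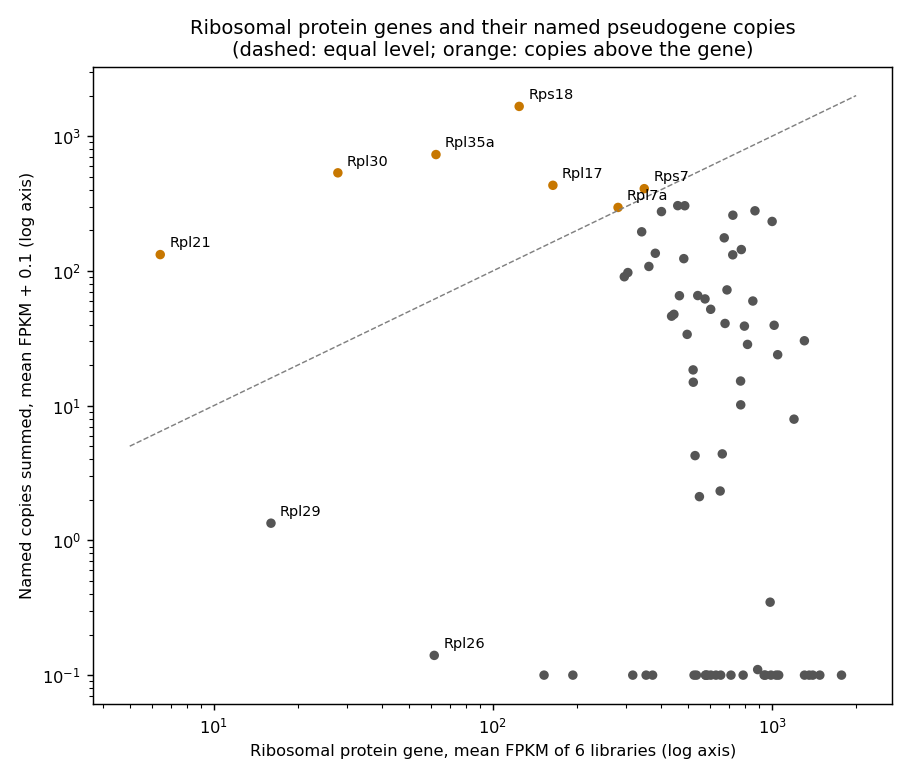
Mean FPKM over the 6 libraries of each ribosomal protein gene (x, log axis) against the summed mean FPKM of its named copies plus 0.1 (y, log axis), with a dashed line at equal level. The 7 orange genes lie above the line, Rpl21, Rpl30, Rps18 and Rpl35a the farthest, and Rpl29 and Rpl26 are low on both axes.

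Most of the 7 genes varied more from library to library than the typical member. The SD within groups on the log2(FPKM + 1) scale had a median of 0.19 over those 7 members and of 0.054 over the other 68. For the sums of gene and copies the medians were 0.048 and 0.052. Copies made up 92.1 to 95.4% of the sums of Rpl21, Rpl30, Rps18 and Rpl35a, so the SD of those sums is mostly that of the copies. Rpl17, which lines the exit tunnel, had the largest SD of the 7, 0.51 alone. The gene had 221, 118 and 122 FPKM in GFP-CCNB1IP1 replicates 1 to 3 and 239, 166 and 118 FPKM in GFP replicates 1 to 3. Its copies had 426, 505 and 505 FPKM in GFP-CCNB1IP1 libraries and 292, 399 and 463 FPKM in GFP libraries, so within each group the library with the most from the gene had the least from the copies. Gene and copies together had 647, 623 and 627 FPKM in GFP-CCNB1IP1 libraries, against 531, 565 and 580 FPKM in GFP libraries, and these sums did not overlap. Rpl35a did not share this, as gene and copies were lowest in the same library of each group. Rps7 differed from the other 6 in spread, with a within-group SD of 0.017 alone and 0.049 with copies. Wide spread was also found elsewhere: Rps27, whose named copy is listed at 0, had a within-group SD of 0.21. Rps15a, with copies at 51.8 FPKM, had 0.151 alone and 0.148 with copies. Rps13, with copies at 90.4 FPKM, had 0.18 alone but 0.051 with copies. In GFP-CCNB1IP1 replicate 3 Rps13 was at its lowest, 242 FPKM, and its copies at their highest, 168 FPKM.

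**Figure D3:**
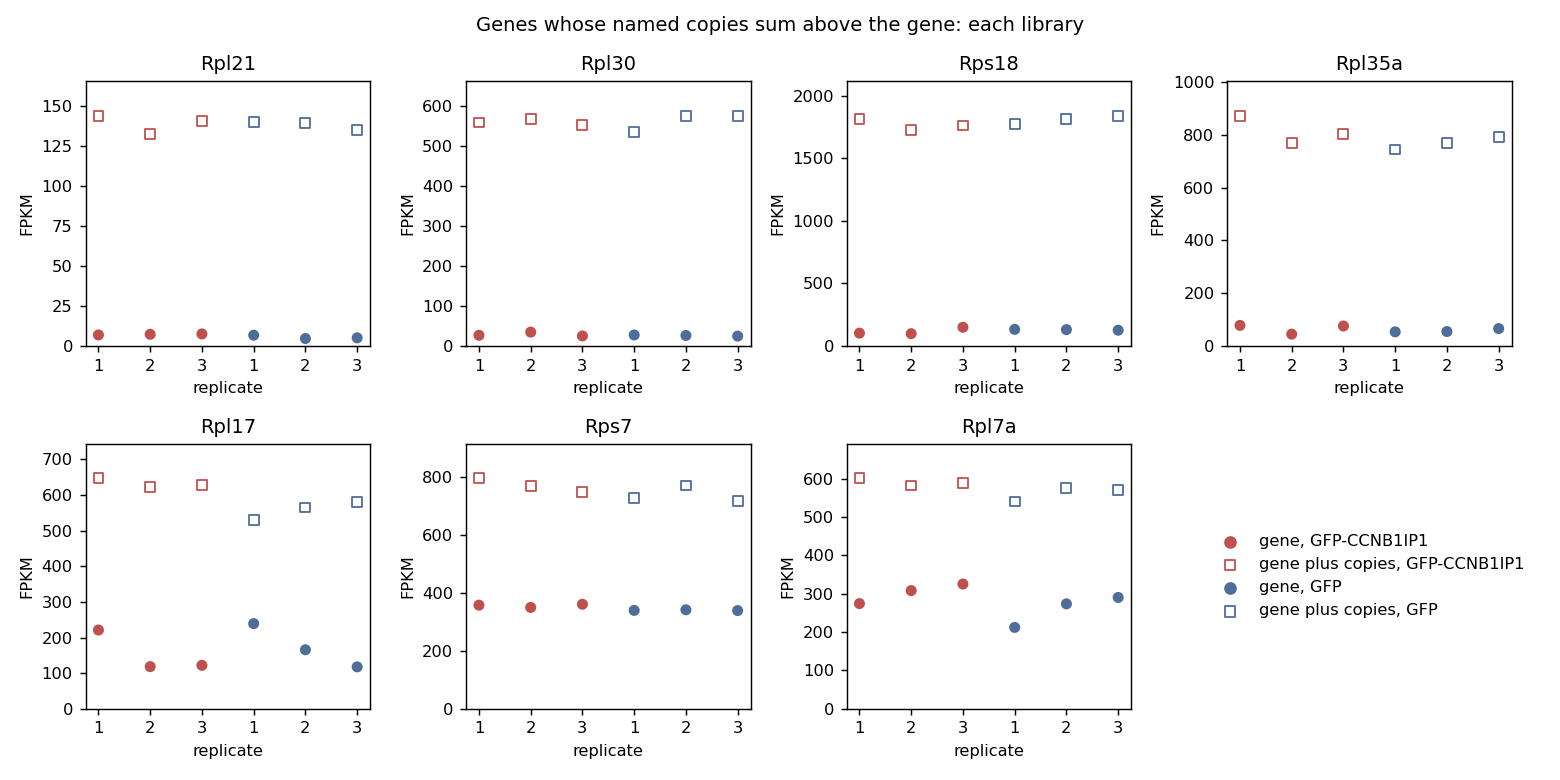
FPKM of each of the 7 genes whose named copies sum above the gene (filled circles) and of gene plus copies (open squares) in GFP-CCNB1IP1 replicates 1 to 3 (red, left) and GFP replicates 1 to 3 (blue, right). For Rpl17 the circles spread from 118 to 239 FPKM while the squares stay between 531 and 647 FPKM, with the GFP-CCNB1IP1 squares above the GFP ones.

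The comparison of GFP-CCNB1IP1 with GFP libraries asks whether CCNB1IP1 altered transcript levels in these cells. Taken as a whole, the ribosomal protein genes did not separate the groups. Their summed level was 50353, 47078 and 48302 FPKM in GFP-CCNB1IP1 replicates 1 to 3 and 46692, 48212 and 47645 FPKM in GFP replicates 1 to 3. The ranges overlap, with means of 48578 ± 1655 FPKM in GFP-CCNB1IP1 libraries and 47517 ± 768 FPKM in GFP libraries (SD, n = 3 each), a log2 ratio of 0.031 with a within-group SD of 0.038 on the same scale. That ratio was 0.0053 without GFP-CCNB1IP1 replicate 1, 0.054 without GFP-CCNB1IP1 replicate 2, 0.019 without GFP replicate 1 and 0.0032 with quantile normalization. In bulk RNA, fewer cells of a type and less RNA per cell cannot be told apart. As a share of all FPKM they took 10.2 ± 0.344% in GFP-CCNB1IP1 libraries and 10.02 ± 0.0848% in GFP libraries (SD, n = 3 each). The balance of the subunits differed by less than the spread between libraries. The summed small-subunit level over the large-subunit level was 0.649 ± 0.0100 in GFP-CCNB1IP1 libraries and 0.647 ± 0.00819 in GFP libraries (SD, n = 3 each).

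None of the 75 genes passed the test across all genes. All 75 passed the filter of a mean of at least 1 FPKM, which 13231 genes passed, and the smallest adjusted p of a member was 0.278 (limma on log2(FPKM + 1), Benjamini-Hochberg over all genes tested). Over all genes 0.00756% passed at an adjusted p under 0.05, which is 1 gene, Gm20305, listed at 0 in every GFP library and named here after its values were seen. At an unadjusted p under 0.05, which covers 11.4% of all genes, stood 4 members, 3 with a positive fold change (Rpl24, Rpl21 and Rpl9; background 5.59%) and 1 with a negative one (Rps12; background 5.77%). All GFP-CCNB1IP1 values lay above all GFP values for 7 members, Rpl24, Rpl21, Rpl9, Rpl14, Rps7, Rps24 and Rpl5, where 8.7% of all genes do so. The reverse held for 1 member, Rps12, against 8.9% of all genes. These shares are near or below the background.

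Fold changes were small and their intervals narrow for most members. On the log2(FPKM + 1) scale, GFP-CCNB1IP1 over GFP, which understates changes of low genes, 63 of the 75 lay within 0.1 of 0, and the extremes were -0.18 for Rpl17 and 0.35 for Rpl21. For 63 members the 95% interval stayed within 0.25 on either side of 0, so a change larger than that lies outside it. The interval reached past 0.25 for 12 members and past 0.5 for 6 of these, and its widest reach was -0.87 for Rpl17 and 0.63 for Rpl21. A p that misses the threshold does not show that levels were equal.

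**Figure D4:**
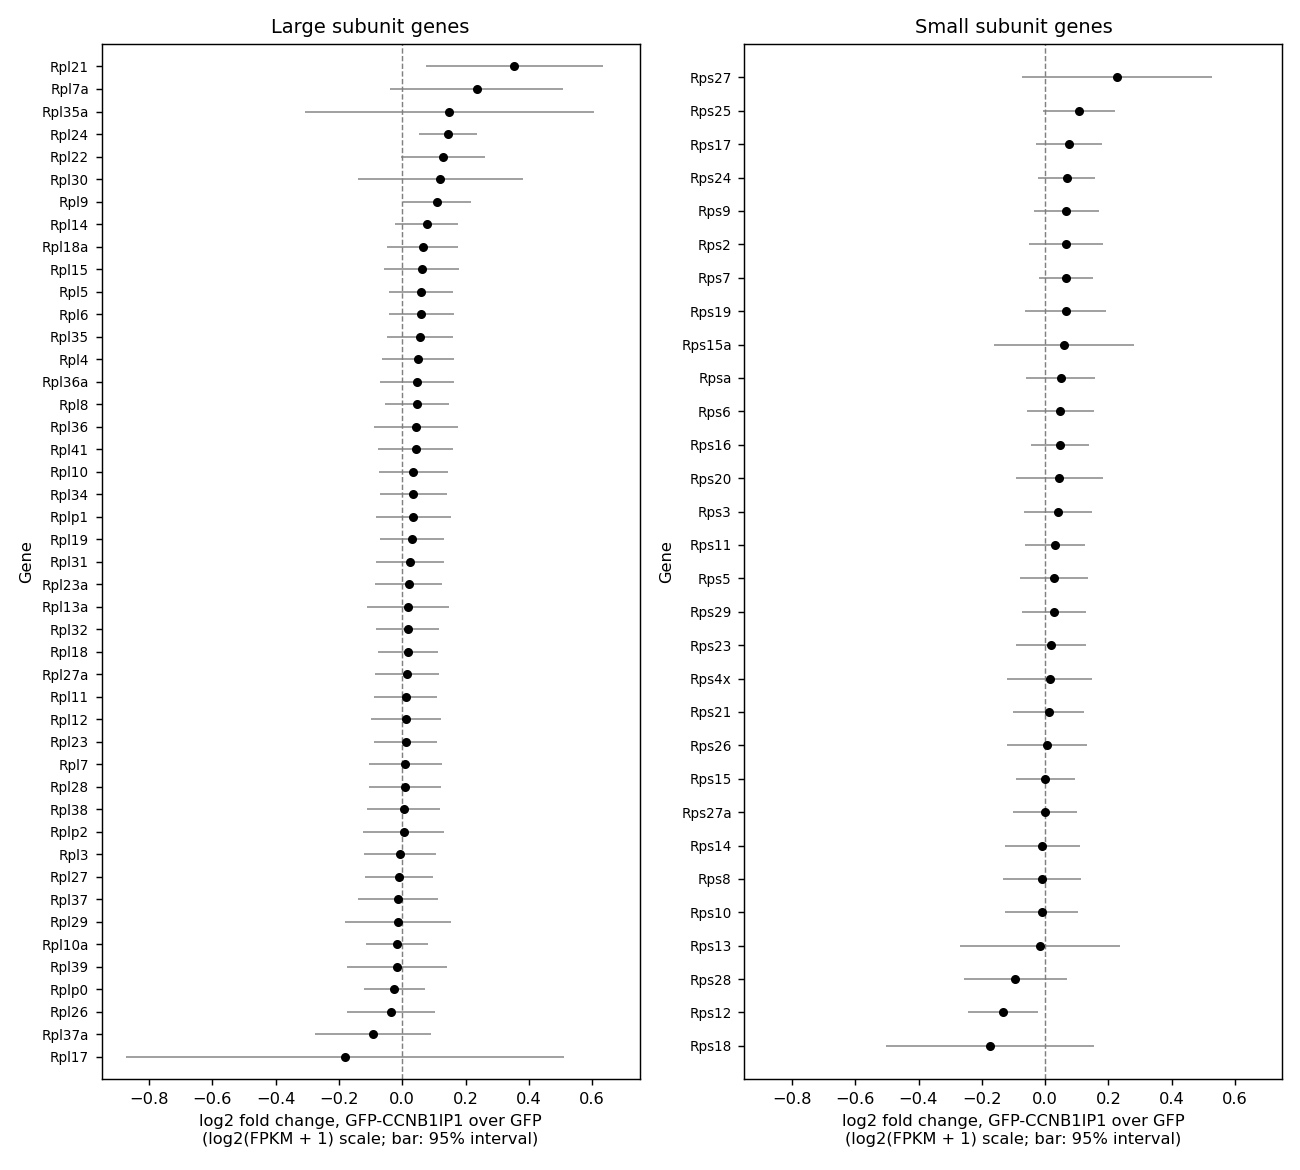
Log2 fold change of each ribosomal protein gene, GFP-CCNB1IP1 over GFP, on the log2(FPKM + 1) scale, with its 95% interval from limma (bars), large subunit left and small subunit right. Most points lie within 0.1 of the dashed line at 0, the widest interval belongs to Rpl17, and no gene passed the adjusted threshold.

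In the large subunit, 35 of 45 genes had a positive fold change and 10 a negative one, with a median of 0.024 and 0 called. The smallest p was that of Rpl24 (ENSMUSG00000098274.8, chr16:55786638-55791798), a protein near the bridges between the subunits, whose loss causes the Belly spot and tail phenotype in mice. It had 621, 614 and 614 FPKM in GFP-CCNB1IP1 libraries, against 543, 574 and 554 FPKM in GFP libraries. Every GFP-CCNB1IP1 value was above every GFP value. The log2 fold change was 0.15 ± 0.040 (SE), with an adjusted p of 0.278, and no named copy of this gene stands in the tables.

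Rpl21 (ENSMUSG00000041453.13, chr5:146769700-146773842), mutated in a hereditary form of hair loss in humans, had 6.97, 7.36 and 7.59 FPKM in GFP-CCNB1IP1 libraries, against 6.81, 4.70 and 5.14 FPKM in GFP libraries. The groups did not overlap, though the highest GFP value, of replicate 1, lay close to the GFP-CCNB1IP1 values. Its log2 fold change was the largest of all members, 0.35 ± 0.12 (SE), with an adjusted p of 0.349. These values rest on 51.4 to 82.3 implied fragments a library, and the sum of Rpl21 and its copies had a log2 fold change of 0.011 ± 0.047 (SE).

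Rpl9 (chromosome 5), a protein near the site where elongation factors bind, had 414, 390 and 385 FPKM in GFP-CCNB1IP1 libraries, against 368, 377 and 355 FPKM in GFP libraries. The groups did not overlap. The log2 fold change was 0.11 ± 0.047 (SE), with an adjusted p of 0.431.

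On the negative side of the large subunit all 3 genes with the smallest p overlapped between the groups. Rpl37a (chromosome 1), a zinc-binding protein, had 302, 280 and 339 FPKM in GFP-CCNB1IP1 libraries, against 302, 329 and 349 FPKM in GFP libraries, a log2 fold change of -0.092 ± 0.080 (SE) with an adjusted p of 0.704. Its fold change was -0.028 and -0.17 without GFP-CCNB1IP1 replicates 2 and 3 in turn, and -0.15 and -0.045 without GFP replicates 1 and 3 in turn. Rpl17 (chr18:75131629-75136452), whose values stand above, had a log2 fold change of -0.18 ± 0.30 (SE) alone, with an adjusted p of 0.857. With its copies the sign turned, to 0.18 ± 0.046 (SE), with an adjusted p of 0.268, and over the libraries left out in turn the gene alone ran from -0.47, without GFP-CCNB1IP1 replicate 1, to 0.076, without GFP replicate 1. No direction is given for Rpl17.

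Rplp0 (chromosome 5), the base of the stalk, had 902, 853 and 885 FPKM in GFP-CCNB1IP1 libraries, against 914, 877 and 895 FPKM in GFP libraries. Its log2 fold change was -0.025 ± 0.042 (SE), with an adjusted p of 0.862 and a 95% interval from -0.12 to 0.073. Leaving out single libraries moved it between -0.043, without GFP-CCNB1IP1 replicate 1, and -0.0023, without GFP-CCNB1IP1 replicate 2. It is often used as a stable reference in PCR, and here its values differed by less than the spread between libraries.

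In the small subunit, 23 of 30 genes had a positive fold change and 7 a negative one, with a median of 0.030 and 0 called. Rps12 (ENSMUSG00000061983.8, chr10:23661081-23663173), a protein of the beak of the subunit that in Drosophila is needed for the competition between cells that differ in ribosomal protein dose, had the smallest p. It had 490, 457 and 445 FPKM in GFP-CCNB1IP1 libraries, against 513, 516 and 498 FPKM in GFP libraries. Rps12 was thus the only member with every GFP-CCNB1IP1 value below every GFP value. The log2 fold change was -0.13 ± 0.048 (SE), with an adjusted p of 0.357, which was between 0.152 and 0.613 over the other ways of processing. Its copies summed to 304 FPKM, 0.626 of the gene. Gene and copies together had 820, 743 and 735 FPKM in GFP-CCNB1IP1 libraries, against 812, 820 and 815 FPKM in GFP libraries. These sums overlapped, with a log2 fold change of -0.092 ± 0.051 (SE).

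Rps28 (chromosome 17), a protein by the channel where the message leaves, had 556, 511 and 612 FPKM in GFP-CCNB1IP1 libraries, against 571, 593 and 626 FPKM in GFP libraries. The log2 fold change was -0.095 ± 0.070 (SE), with an adjusted p of 0.656, and the groups overlapped. That value was -0.031 without GFP-CCNB1IP1 replicate 2, -0.16 without GFP-CCNB1IP1 replicate 3 and -0.060 without GFP replicate 3. Rps18 had 103, 99.2 and 150 FPKM in GFP-CCNB1IP1 libraries, against 134, 132 and 127 FPKM in GFP libraries, which overlap because replicate 3 of GFP-CCNB1IP1 was the highest of all. Its log2 fold change was -0.18 ± 0.14 (SE) alone, with an adjusted p of 0.686, and -0.034 ± 0.041 (SE) with its copies. Alone it was -0.095, -0.066 and -0.36 without GFP-CCNB1IP1 replicates 1, 2 and 3 in turn.

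On the positive side, Rps25 (chromosome 9), which several viral internal ribosome entry sites require, had 833, 759 and 809 FPKM in GFP-CCNB1IP1 libraries, against 730, 768 and 729 FPKM in GFP libraries. Replicate 2 of each group made the groups overlap. The log2 fold change was 0.11 ± 0.049 (SE), with an adjusted p of 0.461. The locus of Rps25 overlaps those of Trappc4 and Ccdc84 in the tables; strand is not stated, so reads of overlapping genes may not be separable, and this holds for 13 members in all, among them Rpl5, Rps28 and Rps18.

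Rps7 (chromosome 12), which binds MDM2 and is mutated in some cases of Diamond-Blackfan anaemia, had 358, 350 and 361 FPKM in GFP-CCNB1IP1 libraries, against 340, 342 and 339 FPKM in GFP libraries. These did not overlap and were the least variable of the genes with abundant copies. The log2 fold change was 0.066 ± 0.037 (SE), with an adjusted p of 0.551. With its copies Rps7 had 796, 770 and 750 FPKM in GFP-CCNB1IP1 libraries, against 728, 771 and 719 FPKM in GFP libraries. These sums overlapped, with a log2 fold change of 0.062 ± 0.046 (SE). Rps27 (chromosome 3), a zinc-finger protein, had 684, 767 and 847 FPKM in GFP-CCNB1IP1 libraries, against 535, 760 and 681 FPKM in GFP libraries. It overlapped and varied widely inside both groups, and its log2 fold change was 0.23 ± 0.13 (SE), with an adjusted p of 0.551. Leaving out GFP replicate 1 gave 0.086, leaving out GFP replicate 2 gave 0.34, and leaving out GFP-CCNB1IP1 replicate 3 gave 0.15.

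No gene was called in any of the groups of members formed by place and function. The stalk, which recruits and activates translation factors, consists of Rplp0, Rplp1, Rplp2 and Rpl12, and 3 of its 4 genes had a positive fold change, with a median of 0.0076. Rplp1 had 1551, 1407 and 1543 FPKM in GFP-CCNB1IP1 libraries, against 1439, 1450 and 1503 FPKM in GFP libraries. Its partner Rplp2 had 458, 444 and 434 FPKM in GFP-CCNB1IP1 libraries, against 414, 472 and 448 FPKM in GFP libraries. Rpl12, at the foot of the stalk, had 694, 634 and 643 FPKM in GFP-CCNB1IP1 libraries, against 638, 666 and 651 FPKM in GFP libraries. The groups overlapped for all 4, and the order of levels, Rplp1 over Rplp0 over Rpl12 over Rplp2, was the same in all 6 libraries.

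Rpl5 and Rpl11 form, with 5S ribosomal RNA, the particle that binds and inhibits MDM2, the ubiquitin ligase of p53, when ribosome assembly fails. Rpl5 had 557, 523 and 517 FPKM in GFP-CCNB1IP1 libraries, against 513, 513 and 505 FPKM in GFP libraries. Rpl11 had 1034, 988 and 962 FPKM in GFP-CCNB1IP1 libraries, against 976, 1001 and 982 FPKM in GFP libraries. The Rpl5 groups stood apart by a narrow margin and the Rpl11 groups overlapped; the smallest adjusted p of the pair was 0.652.

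Rps2, Rps3, Rps10 and Rps20 are the small-subunit proteins that ubiquitin ligases mark when ribosomes collide. Rps2 had 772, 720 and 729 FPKM in GFP-CCNB1IP1 libraries, against 688, 744 and 688 FPKM in GFP libraries. Rps3 had 646, 597 and 593 FPKM in GFP-CCNB1IP1 libraries, against 595, 598 and 590 FPKM in GFP libraries. The groups overlapped for both, as they did for the other two. Rps10 had 703, 639 and 672 FPKM in GFP-CCNB1IP1 libraries, against 655, 674 and 700 FPKM in GFP libraries, and Rps20, the lowest of the 4, had 196, 183 and 210 FPKM in GFP-CCNB1IP1 libraries, against 182, 194 and 195 FPKM in GFP libraries. The smallest adjusted p of these 4 was 0.658.

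Of 9 proteins around the exit tunnel, 6 had a positive fold change, with a median of 0.024 and a smallest adjusted p of 0.455. Of 9 along the path of the message through the small subunit, 7 did, with a median of 0.029 and a smallest adjusted p of 0.612. Of 19 genes mutated in Diamond-Blackfan anaemia, a failure of red cell formation, 15 did, with a median of 0.045 and a smallest adjusted p of 0.551. No gene in these 3 groups was called, and a gene can stand in several of them.

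The count of positive fold changes depended on single libraries. Positive values were found for 58 of the 75 genes, 77.3%, against 51.4% of all genes tested and 62.5% of the 512 other genes at a mean of 100 FPKM or more. The median fold change was 0.029 over the members, 0.0037 over all genes and 0.024 over those other abundant genes, on the log2 scale. GFP-CCNB1IP1 replicate 1 held the highest value of 51 members, and of 47.9% of the other abundant genes but 21.4% of all genes. Relative to the mean of the GFP libraries, the median member stood at 0.085, -0.014 and 0.024 in GFP-CCNB1IP1 replicates 1 to 3 and at -0.025, 0.021 and -0.0018 in GFP replicates 1 to 3, on the log2 scale. Without GFP-CCNB1IP1 replicate 1 the median fold change of the members was 6.9e-05, with 38 of 75 positive. Without GFP-CCNB1IP1 replicate 2, the library with the fewest implied fragments per FPKM, it was 0.047, with 65 positive. GFP replicate 1 held the lowest value of 28 members, and without it the median was 0.021, with 49 positive. With quantile normalization, which makes the distribution of values the same in every library, the median was 0.0023, with 39 positive, and on the TPM scale 0.018, with 47 positive.

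**Figure D5:**
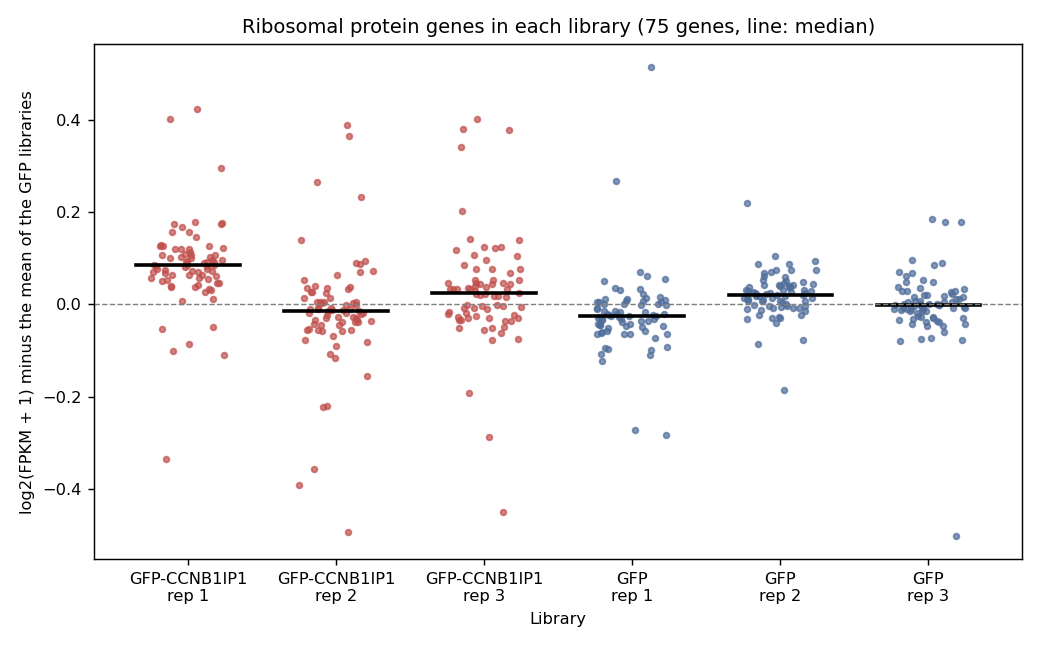
Log2(FPKM + 1) of each of the 75 ribosomal protein genes minus its mean over the GFP libraries, in each library, GFP-CCNB1IP1 left of GFP, with a line at the median. GFP-CCNB1IP1 replicate 1 stands highest, with a median of 0.085, and the other 5 medians lie between -0.025 and 0.024.

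Rps3a1 and Fau, which encode ribosomal proteins but fall outside the name rule, were not called either. Rps3a1, a small-subunit protein, had 281, 247 and 262 FPKM in GFP-CCNB1IP1 libraries, against 247, 245 and 261 FPKM in GFP libraries. Fau, which encodes Rps30 fused to a ubiquitin-like protein, had 515, 466 and 492 FPKM in GFP-CCNB1IP1 libraries, against 474, 473 and 497 FPKM in GFP libraries. The groups overlapped for both.

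Paralogues, which can stand in for a ribosomal protein in some tissues, were much lower with 1 exception. Rpl36al had a mean of 315 FPKM against 483 FPKM for its parent Rpl36a, and Rps27l, a p53 target in human cells, had 107 FPKM. Rpl7l1 had 34.1 FPKM, Rpl39l 28.1 FPKM and Rpl22l1 27.7 FPKM. Rpl22l1, whose splicing and level are kept down by Rpl22, had 31.2, 32.2 and 27.8 FPKM in GFP-CCNB1IP1 libraries, against 21.2, 32.6 and 21.3 FPKM in GFP libraries, with an adjusted p of 0.519. The groups overlapped through GFP replicate 2. Rps4l and Rpl3l, the form found in muscle, were under 1 FPKM, and Rpl10l, the form of the male germline, was listed at 0 in all 6 libraries.

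Other messages with a TOP motif, which encode translation factors and related proteins, were looked at beside the ribosomal protein genes. Of 18, 16 had a positive fold change, with a median of 0.046, and GFP-CCNB1IP1 replicate 1 was the highest library for 14 of them. Without that library 11 of 18 were positive, with a median of 0.022, and none was called with it or without it. Eif3e, a subunit of initiation factor eIF3, had the smallest p, with 119, 117 and 113 FPKM in GFP-CCNB1IP1 libraries, against 103, 107 and 102 FPKM in GFP libraries. The groups did not overlap; the log2 fold change was 0.16 ± 0.043 (SE), with an adjusted p of 0.274. Rack1, a scaffold on the small subunit, had 787, 742 and 773 FPKM in GFP-CCNB1IP1 libraries, against 708, 734 and 726 FPKM in GFP libraries, without overlap and with an adjusted p of 0.484.

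Genes that control TOP messages were divided, 8 positive and 8 negative of 16, with a median of 0.0021 and 0 called. Rheb, the GTPase that activates mTOR, had 49.96, 48.0 and 48.8 FPKM in GFP-CCNB1IP1 libraries, against 44.4, 41.2 and 42.2 FPKM in GFP libraries. Eif4ebp1, the translation repressor that mTOR inactivates, had 178, 160 and 170 FPKM in GFP-CCNB1IP1 libraries, against 158, 145 and 159 FPKM in GFP libraries. Neither overlapped, and their adjusted p values were 0.270 and 0.441.

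Importins, chaperones and ubiquitin ligases that carry, guard or remove ribosomal proteins had 3 of 14 fold changes positive, a median of -0.055 and 0 called. Bccip, whose yeast counterpart Bcp1 escorts Rpl23, had 34.3, 35.9 and 34.8 FPKM in GFP-CCNB1IP1 libraries, against 33.9, 28.6 and 29.2 FPKM in GFP libraries. Ube2o, which ubiquitinates unassembled ribosomal proteins, had 16.2, 15.9 and 14.0 FPKM in GFP-CCNB1IP1 libraries, against 17.1, 17.7 and 17.6 FPKM in GFP libraries. The groups did not overlap in either, and the adjusted p values were 0.380 and 0.406.

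Ribosome quality control genes were even, with 7 of 14 positive, a median of -0.0026 and a smallest adjusted p of 0.420, that of Ascc2, a part of the complex that splits collided ribosomes. It had 33.6, 34.8 and 33.1 FPKM in GFP-CCNB1IP1 libraries, against 30.8, 29.4 and 32.2 FPKM in GFP libraries. Gtpbp1, a GTPase related to elongation factors, had 31.0, 28.2 and 30.3 FPKM in GFP-CCNB1IP1 libraries, against 34.4, 31.0 and 32.5 FPKM in GFP libraries. Ascc2 did not overlap and Gtpbp1 did.

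Of 8 genes of the MDM2 and p53 arm, on which free Rpl5 and Rpl11 act, 6 had a positive fold change, with a median of 0.047 and a smallest adjusted p of 0.428. That was Ccng1, a p53 target, with 9.21, 8.18 and 8.98 FPKM in GFP-CCNB1IP1 libraries, against 7.76, 7.97 and 7.07 FPKM in GFP libraries, without overlap. Cdkn1a, the cell cycle inhibitor p21, had 44.7, 38.1 and 38.0 FPKM in GFP-CCNB1IP1 libraries, against 33.2, 41.8 and 35.3 FPKM in GFP libraries, and overlapped.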

How the data were processed

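RNA from 6 libraries was analysed, 3 labelled GFP-CCNB1IP1 and 3 labelled GFP. Poly(A) RNA was captured on oligo-dT beads and copied from random primers, per the labels' protocols, and strand is not stated. The submitters' processing notes name HISAT2 and Cufflinks without versions; the genome build and annotation release were not given in the sources used here. The authors deposited 1 table of FPKM per library, with confidence bounds and a status for each gene, per the file headers. Each table has 53537 rows; rows sharing an identifier (38 identifiers) were summed.

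Genes with a mean FPKM of at least 1 were tested on log2(FPKM + 1), with FPKM as deposited, with limma 3.58.1 in R 4.3.3 (mean-variance trend, no block), with Benjamini-Hochberg adjustment over all 13231 genes and a call at an adjusted p under 0.05. With 3 libraries a group, the smallest two-sided p of an exact permutation test is 0.1, so none was run. Implied fragments are the squared ratio of FPKM to its standard error, with the upper bound placed 2 standard errors up. They describe error within a library, not between libraries, and whether that is counting error alone was not tested. Coordinates were taken as 0-based starts in the tables and are printed 1-based. The fit was tested on simulated data with changes larger than any member showed. That test does not measure how well changes of the size seen here are found.

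The members and all gene lists were chosen with earlier results of these data known. Members named with a fold change are the 3 with the smallest p in each direction and subunit; levels are given for the 5 highest and 5 lowest and for the stalk, 5S particle and collision groups; of other lists the 2 with the smallest p are named, and all paralogues and genes the name rule misses, except an item that is not reported here. Lists are described by counts and medians, without a test. Alternatives were pseudocounts of 0.1 and 5, a filter at 5 FPKM or none, TPM, scaling by the median of ratios, quantile normalization, a replicate block, limma with a robust prior or no trend, other choices of members or rows, each library left out, and, added after the data were seen, named copies summed with their member.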

Additional observations from a re-analysis of the deposited data

How the results depend on the processing

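No member was called under any of the 20 alternatives, of which the other choices of members reused the main fit. The smallest adjusted p was 0.152, that of Rps12 with quantile normalization. The median fold change of the members and the ratio of their summed levels kept their sign under each. Other filters, the replicate block, the robust prior, the fit without the trend and the choice of rows cannot change either value here. Pseudocounts cannot change the ratio. A kept sign under those settings carries no weight, and the same holds there for the fold changes of single members below. The median and the ratio moved by less than 1 SD between libraries, which was 0.039 for the median and 0.038 for the ratio. Those SDs exceed the values themselves, 0.029 and 0.031, so this limit could not show a loss of either. The median ran from 6.9e-05 to 0.047 over the libraries left out. Named members gave 216 fold changes over 18 alternatives, of which 2 changed sign, both of Rpl17: 0.18 with named copies added and 0.076 without GFP replicate 1. Over the libraries left out Rpl17 ran from -0.47 to 0.076.

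Over all genes 1 was called. The count was 2 on the TPM scale and 0 with a pseudocount of 5, without the filter, without the trend and with the replicate block. Leaving out 1 library gave between 0 and 4, with 4 without GFP replicate 1, 0 without GFP replicate 2 or 3, and 2 without GFP-CCNB1IP1 replicate 2; the cause was not tested.

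Same-numbered libraries did not deviate together (correlations across genes of 0.023, -0.0093 and -0.011), so the numbers are not read as pairs. With the replicate block 0 members were called and the smallest adjusted p of a member was 0.374. The block lowered the SE of Rpl17 from 0.30 to 0.10 and that of Rps27 from 0.13 to 0.077. It also lowered the SE of Rpl37a, Rps28 and Rps18 and raised that of the other members named with a fold change. Whether single members vary with the replicate number was not tested. Implied fragments were fewest for Rpl21 and Rpl29, at 51.4 and 52.98 in their thinnest libraries. The cause of the sign changes of Rpl17 was not tested.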

Other observations

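The named pseudogene copies of the ribosomal protein genes gave values of their own that the comparison of the genes does not show. Of the 132 copies with a mean of at least 1 FPKM, 100 had a positive fold change, GFP-CCNB1IP1 over GFP, with a median of 0.082 on the log2(FPKM + 1) scale, against 0.029 over the 75 members and 0.0037 over all genes tested. None was called (limma, smallest adjusted p 0.217). At an unadjusted p under 0.05 stood 20 with a positive fold change, where 5.59% of all genes do, and 4 with a negative one, where 5.77% do. All GFP-CCNB1IP1 values lay above all GFP values for 21 copies, where 8.7% of all genes do so, and below them for 3, where 8.9% do. Copies of 1 member can share reads with each other and with the member, so they are not independent of each other.

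The 3 copies with the smallest p, chosen after their values were seen, did not overlap between the groups. Rps10-ps1 (chromosome 3) had 32.1, 30.4 and 28.3 FPKM in GFP-CCNB1IP1 libraries, against 24.8, 22.3 and 24.8 FPKM in GFP libraries. Rps13-ps4 (chromosome 8) had 10.5, 10.02 and 10.3 FPKM in GFP-CCNB1IP1 libraries, against 7.75, 8.58 and 8.31 FPKM in GFP libraries. Rpl9-ps6 (chromosome 19) had 88.0, 90.3 and 92.0 FPKM in GFP-CCNB1IP1 libraries, against 79.3, 80.1 and 78.8 FPKM in GFP libraries. Their log2 fold changes were 0.32 ± 0.070, 0.29 ± 0.068 and 0.18 ± 0.042 (SE).

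The library that stood highest for the members was also the highest for 51 of the 132 copies, and GFP-CCNB1IP1 replicate 3 was for 36. Without GFP-CCNB1IP1 replicate 1, 92 copies were positive with a median of 0.073, while 38 of the 75 members were. Over all libraries left out in turn the count of positive copies was between 88 and 106 and their median between 0.069 and 0.11. With quantile normalization it was 100 with a median of 0.074. Why copies and members differ in this was not tested, and the difference itself was not tested.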
